A study of Mus musculus with 66 samples.

Results

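Egr1, Egr2, Egr3, Egr4, Nr4a1, Nr4a2 and Nr4a3 are the zinc finger transcription factors of the early growth response (Egr) family and the orphan nuclear receptors of the Nr4a family. They were taken from the gene expression table by symbol, and all 7 were found as 1 entry each among the 24138 genes listed. RNA from punches of the ventral striatum, which holds the nucleus accumbens (NAcc), was sequenced from C57BL/6 mice that were wild type (WT) or iMSN-D2RKO and that had received an intraperitoneal injection of saline or 20 mg/kg cocaine at ZT3, 3 h after lights on. Mice were killed at ZT7, ZT11, ZT15, ZT19 or ZT23, with 3 libraries for each genotype, treatment and time point, and a further 3 libraries of each genotype came from ZT3 itself. This gives 66 distinct libraries in 22 groups. The ZT3 libraries are labelled saline/cocaine and stand at the start of both series, and the labels do not say whether these mice had been injected. In the study's methods, mice were handled on earlier days and moved to a new home cage before the injection. The mice were adult males, and iMSN-D2RKO mice carried floxed Drd2 alleles with Cre driven by the D1R promoter, which removes D2R from the precursors of the D2R-expressing medium spiny neurons (iMSNs). Whether the WT mice carried floxed alleles is not given in the sources used here. Replicates are libraries with separate labels, and whether each came from a mouse of its own is not stated, so the p-values measure the spread between these libraries.

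Egr and Nr4a genes are early-response genes: calcium, cAMP and MAP kinase signals that follow synaptic or receptor activity switch on their transcription within minutes, through CREB and serum response factor already bound at their promoters, and their short-lived mRNAs fall again soon after. Egr proteins bind GC-rich DNA and are held back by the corepressors Nab1 and Nab2, while Nr4a receptors act without a ligand, as monomers, as dimers or with RXR partners. In the striatum dopamine, psychostimulants, handling and novelty are known to raise them, and Nr4a2 is also a lineage gene of midbrain dopamine neurons and of deep cortical and claustral neurons.

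The promoters of Egr2, Egr4, Nr4a1 and Nr4a3 are shown because these genes were higher together in the same WT libraries at ZT3. The RefSeq table (GRCm38.p6, the build of mm10) held 5 of the 7 members, Egr2, Egr4, Nr4a1, Nr4a2 and Nr4a3, as windows from 250 bases before to 50 after a transcript start. The bases upstream of the start are printed 5′ to 3′ on the gene's strand, for Nr4a3 as far as the first annotated exon in the window. Capitals mark the TGACG core of the cAMP response element on either strand (CGTCA when it lies on the other) and, in Egr2, the CArG box, which is the core of the serum response element. The regions are chr10:67537619-67537868 on the plus strand for Egr2, chr6:85513590-85513839 on the minus strand for Egr4, chr15:101266596-101266845 on the plus strand for Nr4a1 and chr4:48045055-48045152 on the plus strand for Nr4a3.
Egr2: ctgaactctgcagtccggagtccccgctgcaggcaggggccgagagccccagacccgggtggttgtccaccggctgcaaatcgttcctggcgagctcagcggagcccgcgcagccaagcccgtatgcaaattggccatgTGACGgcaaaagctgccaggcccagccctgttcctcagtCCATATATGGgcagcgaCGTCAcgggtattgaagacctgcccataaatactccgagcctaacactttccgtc
Egr4: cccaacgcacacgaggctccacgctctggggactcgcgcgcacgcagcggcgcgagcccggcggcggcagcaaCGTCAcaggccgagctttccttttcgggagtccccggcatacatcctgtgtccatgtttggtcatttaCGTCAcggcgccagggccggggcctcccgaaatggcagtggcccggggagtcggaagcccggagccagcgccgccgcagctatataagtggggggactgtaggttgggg
Nr4a1: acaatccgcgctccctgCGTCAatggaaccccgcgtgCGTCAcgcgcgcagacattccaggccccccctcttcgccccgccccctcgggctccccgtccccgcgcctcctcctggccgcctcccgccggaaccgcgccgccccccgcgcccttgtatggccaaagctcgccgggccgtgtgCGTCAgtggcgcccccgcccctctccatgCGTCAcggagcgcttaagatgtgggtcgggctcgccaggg
Nr4a3: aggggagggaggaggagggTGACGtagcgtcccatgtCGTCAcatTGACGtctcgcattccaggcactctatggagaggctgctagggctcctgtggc

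The TGACG core was found in at least 1 window of all 5 members with an entry, against 20.8% of all 32851 windows and 23% of genes. Egr2 had several windows, of which 1 with the core is printed. Its windows chr10:67535249-67535548 and chr10:67537316-67537615 held no core. The core starts 111 and 55 bases before the start shown in Egr2, and 177 and 109 in Egr4. For Nr4a1, Nr4a2 and Nr4a3, 4 matches each were found, of which 3 lie in the printed bases of Nr4a3. The full palindrome TGACGTCA, which contains the core on both strands, was in 1.79% of windows and in that of no member. A CArG box was in 1.63% of windows and, among the members, in Egr2 alone, 72 bases before the start shown. The Egr site GCGTGGGCG (0.612% of windows) and the Nr4a monomer site AAAGGTCA (1.51%) were in no member's window, and TATAAA (13.6%) was in that of Nr4a2. Such matches describe letters in a window and are not binding measurements.

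Expression was deposited as FPKM, which is scaled to transcript length and to the library, so that levels can be set side by side between genes and, less exactly, between libraries. Added over genes, FPKM came to 364078 in the lowest library and had a median of 396432. It came to 690048 in the highest, iMSN-D2RKO saline ZT7 replicate 1, and to 465297 in the next. Read numbers are not given in the sources used here, so precision can be judged only from the spread between libraries. Of the differences between libraries of a group, 43.6% of the variance lay on 1 axis on which 13 libraries stood apart, with scores of 44.3 to 56.1 against -35.9 to 15.1 for the other 53, and none of these 13 was from ZT3. All 10 markers of spiny neurons were found, with a summed level of 2550 to 15600 FPKM. Drd2 ran from 99.1 to 304 FPKM (median 129) in WT and from 78.0 to 375 FPKM (median 112) in iMSN-D2RKO libraries, and a gene-level FPKM need not see the deletion of part of a gene.

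Egr1 was the most abundant member, and Egr2 the least abundant by the median. The median FPKM over the 66 libraries was 109 for Egr1, 55.3 for Egr3, 46.3 for Nr4a1, 28.0 for Egr4, 6.53 for Nr4a2, 4.66 for Nr4a3 and 3.24 for Egr2. Egr1 stood above Egr3 in 65 of 66 libraries, and their 3 libraries did not overlap in 19 of the 22 groups. Egr3 stood above Nr4a1 in 38 libraries and Nr4a2 above Nr4a3 in 41, so these neighbours in the order did not separate. Nr4a1 lay above Egr4 in 55 libraries, Egr4 above Nr4a2 in 61 and Nr4a3 above Egr2 in 53, although the last of these pairs was free of overlap in 2 groups only.

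The ranges of the members differed as well. Egr3 had the narrowest, from 31.1 to 113 FPKM. Egr1 ran from 50.2 to 491 FPKM, Nr4a1 from 16.0 to 183, Egr4 from 7.51 to 186 and Nr4a3 from 1.18 to 30.4. Egr2 ran from 0.896 to 44.3 FPKM, with 65 libraries at 1 FPKM or more, and Nr4a2 from 0.356 to 22.5, with 61. The highest library of Egr2, Egr4, Nr4a1 and Nr4a3 was the same, WT ZT3 replicate 1.

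In WT mice Egr1, Egr2, Egr4, Nr4a1 and Nr4a3 were higher at ZT3 than in the later saline libraries, by 2.28-fold to 5.42-fold on the FPKM + 1 scale, and Egr3 and Nr4a2 did not pass the test. Nr4a1, a receptor known to be induced by dopamine D1 signals and cocaine, measured 183, 72.7 and 131 FPKM in the 3 ZT3 libraries. The 15 saline libraries of ZT7 to ZT23 ran from 17.2 to 45.8 FPKM, with a median of 26.6. All 3 ZT3 libraries thus lay above every later saline library.

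Egr2, which is best known for its part in hindbrain patterning and myelination and is also induced by activity, measured 44.3, 7.88 and 16.3 FPKM at ZT3. Later saline libraries ran from 1.42 to 4.85 FPKM, with a median of 2.22. The groups did not overlap, but replicate 1 was over 2 times as high as the next library.

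Egr4, an activity-induced member found mostly in neurons, measured 186, 66.4 and 88.6 FPKM at ZT3, against 8.65 to 37.3 (median 25.3) later. Nr4a3 measured 30.4, 10.2 and 11.7 FPKM against 1.56 to 7.15 (median 3.19). For both genes the lowest ZT3 library lay above the highest later saline library, and replicate 1 again stood well above the other two.

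Egr1, the most studied member and a marker of recent neuronal activity, measured 279, 171 and 217 FPKM at ZT3. Later saline libraries ran from 61.1 to 143 FPKM, with a median of 92.2, again without overlap. Egr3 measured 111, 51.7 and 69.5 FPKM against 36.4 to 65.8 (median 53.4), and Nr4a2 10.3, 14.7 and 10.7 against 1.83 to 20.2 (median 6.56), and for these 2 genes the groups overlapped.

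These differences were tested with limma on log2(FPKM + 1), in 1 fit of all 66 libraries with a mean per group and Benjamini-Hochberg adjustment over the 14643 genes that reached 1 FPKM in a library, and a gene was called at an adjusted p under 0.05. The fit shares 1 estimate of the spread per gene over all groups. Its SE and p therefore do not follow the wider spread of single groups, such as the 3 WT ZT3 libraries. On this log2 scale Egr2 was higher at ZT3 by 2.44 ± 0.36 (SE; adjusted p = 4.10e-05), Egr4 by 2.14 ± 0.35 (adjusted p = 2.24e-04), Nr4a1 by 2.09 ± 0.23 (adjusted p = 1.72e-07), Nr4a3 by 1.93 ± 0.32 (adjusted p = 2.15e-04) and Egr1 by 1.19 ± 0.29 (adjusted p = 0.0451). Egr3 differed by 0.49 ± 0.23 (adjusted p = 0.618) and Nr4a2 by 0.74 ± 0.58 (adjusted p = 0.774). Of all genes tested, 0.273% were called higher at ZT3, against 5 of the 7 members. Likewise 5 of 7 members, the same genes, had all 3 ZT3 libraries above all 15 later saline libraries, as had 0.744% of all genes.

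Replicate 1 of WT ZT3 carried part of this result. Without it Nr4a1 (1.79 ± 0.27, adjusted p = 2.57e-04) and Egr2 (1.82 ± 0.40, adjusted p = 0.0403) were still called higher, while Egr4 (1.72, adjusted p = 0.0734), Nr4a3 (1.47, adjusted p = 0.094) and Egr1 (1.01, adjusted p = 0.574) were not. Over all 18 libraries left out in turn, the adjusted p ran from 6.80e-08 to 2.57e-04 for Nr4a1, from 5.15e-06 to 0.0403 for Egr2, from 1.25e-04 to 0.0734 for Egr4 and from 2.18e-04 to 0.094 for Nr4a3. For Egr1 it ran from 0.0492 to 0.574, and 16 of the 18 took it over the threshold.

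**Figure D1:**
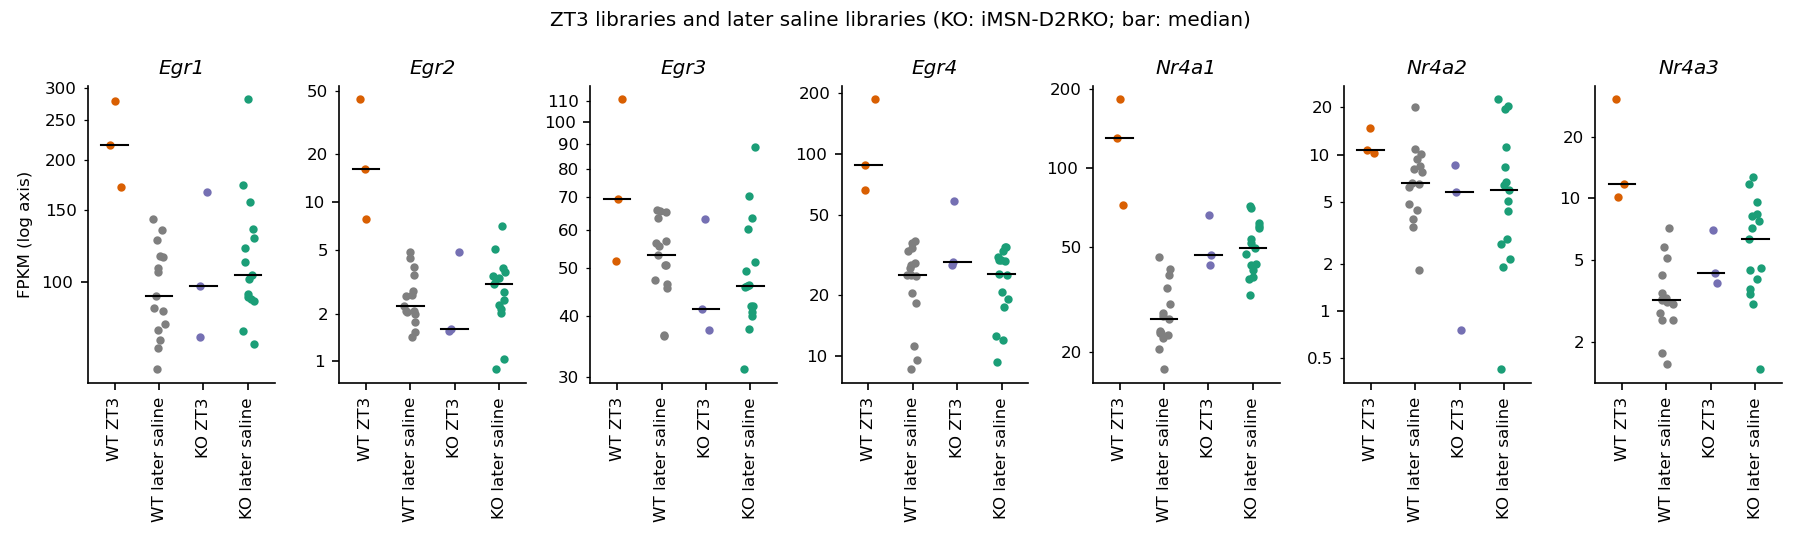
Each panel plots 1 gene, with FPKM on a log axis, and each point is a library: WT at ZT3 (n = 3), WT saline at ZT7 to ZT23 (n = 15), iMSN-D2RKO at ZT3 (n = 3) and iMSN-D2RKO saline at ZT7 to ZT23 (n = 15), with a bar at the median. In WT the 3 ZT3 points of Egr1, Egr2, Egr4, Nr4a1 and Nr4a3 lie above all 15 later saline points, and in iMSN-D2RKO they lie among them for all but Egr4, whose highest ZT3 library measured 58.4 FPKM.

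Against each later saline time point in turn, 17 of 35 tests of a member were called in WT (7 members at 5 time points), all higher at ZT3, where 0.402% of all such tests were. Nr4a1 was called at all 5 time points, by 1.57 ± 0.30 (limma, adjusted p = 0.02) against ZT15 up to 2.52 ± 0.30 (adjusted p = 1.16e-06) against ZT7. Egr2 and Nr4a3 were called against ZT7, ZT11, ZT19 and ZT23, Egr4 against ZT7, ZT19 and ZT23, and Egr1 against ZT7. In WT saline, replicates 1 and 2 of ZT19 and replicate 1 of ZT23 were among the 13 libraries that stood apart. Egr4 measured 11.2, 9.54 and 8.65 FPKM in them, against 24.9 at ZT19 and 20.6 and 25.3 at ZT23 in the others. Without WT ZT3 replicate 1, 10 of the 17 calls were lost and 7 kept, and without any other single library of the compared groups at most 3 were lost. In fits that left out each of the 6 compared libraries in turn, Nr4a1 against ZT15 was lost in 5 of 6 (limma, adjusted p from 0.002 to 0.297), Egr1 against ZT7 in 5 of 6 (adjusted p from 0.0407 to 0.481) and Egr4 against ZT7 in 5 of 6 (adjusted p from 0.0137 to 0.63). ZT15, early in the dark phase, was the time point that ZT3 exceeded least often.

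In iMSN-D2RKO mice none of the 7 members was called at ZT3. Nr4a1 measured 43.0, 46.7 and 66.4 FPKM at ZT3 against 32.9 to 71.9 (median 49.9) later in saline. Egr2 measured 1.59, 1.56 and 4.90 FPKM against 0.896 to 7.08 (median 3.07), and Nr4a3 3.85, 4.31 and 7.0 against 1.47 to 12.7 (median 6.35). For these genes the ZT3 libraries lay within the range of the later saline libraries.

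Egr1 measured 73.2, 97.9 and 166 FPKM in these mice at ZT3 against 70.5 to 281 later, Egr3 37.4, 41.3 and 63.2 against 31.1 to 88.5, and Nr4a2 8.60, 5.79 and 0.754 against 0.424 to 22.5. Egr4 measured 28.4, 29.3 and 58.4 FPKM against 9.36 to 34.8, so that 1 of its ZT3 libraries stood above the later ones. The log2 differences ran from -0.48 ± 0.58 for Nr4a2 to 0.66 ± 0.35 for Egr4 (limma, adjusted p = 0.354). Of all genes, 0.0205% were called in either direction (3 genes) and 2240 had an unadjusted p under 0.05, none of them a member. In none of the 35 tests against single later time points was a member called either, against 0.531% of all such tests, and 1 of the 35, Egr4 at ZT19, had an unadjusted p under 0.05, with 4793 of 14643 genes. No member had all 3 ZT3 libraries above the 15 later saline libraries, against 0.266% of genes.

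The difference between the genotypes in ZT3 against later saline was itself tested. It takes in both the genotype difference at ZT3 and that in later saline, which are given below. Coded as iMSN-D2RKO minus WT, it was -2.62 ± 0.51 for Egr2 (limma, adjusted p = 0.0147), -2.12 ± 0.45 for Nr4a3 (adjusted p = 0.0375) and -2.04 ± 0.33 for Nr4a1 (adjusted p = 0.00111), so 3 of 7 members were called, against 0.0546% of all genes that were lower. Egr4 (-1.48 ± 0.50), Egr1 (-1.30 ± 0.41), Nr4a2 (-1.22 ± 0.82) and Egr3 (-0.56 ± 0.32) had the same sign and were not called. Without WT ZT3 replicate 1 the difference was called for Nr4a1 alone (-1.75, adjusted p = 0.0458), and Egr2 (-1.99, adjusted p = 0.509) and Nr4a3 (-1.66, adjusted p = 0.843) were lost. Over 36 libraries left out in turn, the adjusted p ran from 6.62e-05 to 0.0458 for Nr4a1, from 0.00112 to 0.509 for Egr2, which was lost without 3 libraries (WT ZT3 replicate 1 and iMSN-D2RKO ZT3 replicates 1 and 2), and from 0.0116 to 0.843 for Nr4a3, which was lost without 13.

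Set side by side at ZT3 alone, all 3 WT libraries lay above all 3 iMSN-D2RKO libraries for 6 of 7 members, that is all but Egr3, against 6.52% of all genes. By limma only Egr2 was called, with a difference of -2.49 ± 0.46 (iMSN-D2RKO minus WT, adjusted p = 0.00843), where 0.041% of genes were called lower. Nr4a1 (-1.22 ± 0.30, adjusted p = 0.222), Nr4a3 (-1.48 ± 0.41, adjusted p = 0.432), Egr4 (-1.47 ± 0.46, adjusted p = 0.787), Nr4a2 (-1.39 ± 0.75), Egr1 (-1.03 ± 0.37) and Egr3 (-0.66 ± 0.29) were not. Egr2 was no longer called without WT ZT3 replicate 1 (adjusted p = 0.491), iMSN-D2RKO ZT3 replicate 1 (0.176) or replicate 2 (0.152), and over the 6 libraries left out in turn its adjusted p began at 0.00108.

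Markers of the choroid plexus, the tissue that secretes cerebrospinal fluid, summed to more in every WT ZT3 library than in any later WT saline library. In iMSN-D2RKO the ranges overlapped, but the median was likewise higher at ZT3, at 104 FPKM against 3.12 in later saline. In WT these medians were 100 and 1.73 FPKM. The summed level of the choroid plexus markers Ttr, Kl and Folr1, all 3 found and none at 0, was 65.6 to 116 FPKM in WT and 57.5 to 169 FPKM in iMSN-D2RKO at ZT3, against 0.76 to 9.88 FPKM in later WT saline libraries and 0.807 to 1120 in later iMSN-D2RKO saline libraries. The 5 endothelial markers summed to 67.6 to 69.8 FPKM in WT and 92.1 to 114 in iMSN-D2RKO at ZT3, against 54.9 to 84.8 and 50.4 to 106 in later saline libraries. The 6 cortical and claustral markers found, of 7, summed to 185 to 321 FPKM and 47.9 to 246 at ZT3, against 53.3 to 328 and 56.3 to 322 later. The spiny neuron markers summed to 2550 to 3710 FPKM in WT and 2920 to 5260 in iMSN-D2RKO, against 2940 to 4880 and 3550 to 15600 later. At ZT3 these 3 sums overlapped those of the later libraries in both genotypes. Between the genotypes at ZT3, the endothelial sums did not overlap and were higher in iMSN-D2RKO. The part of these tissues in the members' differences was not tested, and in bulk tissue fewer cells that express a gene and less RNA per cell cannot be told apart.

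From ZT7 on, Nr4a1 was the member that differed between the genotypes in saline. Over the 15 libraries of each genotype it measured 17.2 to 45.8 FPKM (median 26.6) in WT and 32.9 to 71.9 (median 49.9) in iMSN-D2RKO. The means lay farthest apart at ZT7, where the 3 libraries measured 23.1, 17.2 and 20.5 FPKM in WT and 71.9, 42.8 and 62.2 in iMSN-D2RKO. The library with 71.9 FPKM was also the one with the highest FPKM added over genes. At ZT23 the libraries overlapped, with 26.6, 27.5 and 41.5 FPKM in WT and 41.1, 59.2 and 32.9 in iMSN-D2RKO.

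Averaged over ZT7 to ZT23, saline Nr4a1 was higher in iMSN-D2RKO by 0.82 ± 0.14 on the log2 scale (limma, adjusted p = 4.84e-04), which is 1.77-fold, and 0.164% of genes were called higher. The call held with each of 30 libraries left out in turn, with adjusted p of 1.63e-04 to 0.00173. Nr4a3 differed by 0.64 ± 0.18 (adjusted p = 0.12) and the other 5 members by -0.18 to 0.26. After cocaine no member was called between the genotypes, where 0.109% of genes were. At an unadjusted p under 0.05 stood 725 genes and 1 member Nr4a1, at 0.45 ± 0.14 (adjusted p = 0.363). This saline comparison, those with ZT3 and those of cocaine against saline use the same later saline libraries, so they are not independent results.

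Over the mean of ZT7 to ZT23, Nr4a1 was called higher after cocaine than after saline in WT mice, a call that many alternative fits lost. The 15 cocaine libraries measured 16.0 to 123 FPKM (median 48.5) against 17.2 to 45.8 (median 26.6) in saline. At ZT15 the cocaine libraries measured 72.0, 73.9 and 102 FPKM against 39.4, 45.8 and 35 in saline, at ZT19 48.5, 44.6 and 123 against 24.1, 22.5 and 23.6, and at ZT23 71.6, 88.1 and 77.6 against 26.6, 27.5 and 41.5. At these dark time points every cocaine library of Nr4a1 stood above every saline library, as did 5.08% of all genes at ZT15, 4.86% at ZT19 and 2.41% at ZT23.

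At ZT7 Nr4a1 measured 36.0, 19.2 and 16.0 FPKM after cocaine and 23.1, 17.2 and 20.5 after saline, and at ZT11 17.5, 16.1 and 31.8 against 30.5, 28.2 and 23.6. There the libraries overlapped. The mean difference over the 5 time points was 0.70 ± 0.14 (limma, adjusted p = 0.0326), where 0.0137% of genes were called higher. The call was lost in 16 of 30 fits that left out a library, with adjusted p of 0.0134 to 0.135. It was also lost with no filter on low values, without the set-apart libraries and with only the compared groups. Leaving out all libraries of any replicate number lost it as well.

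Of the other members in WT, Egr2 differed by 0.70 ± 0.21 (adjusted p = 0.957), Nr4a3 by 0.53 ± 0.18, Egr1 by 0.41 ± 0.17, Egr4 by 0.38 ± 0.20, Egr3 by 0.23 ± 0.13 and Nr4a2 by -0.10 ± 0.33, none of them called. In iMSN-D2RKO mice no member was called, as 0.0% of genes were (0 genes, with 711 at an unadjusted p under 0.05). Of the members 3 had an unadjusted p under 0.05 there: Egr2 at 0.55 ± 0.21, Egr3 at 0.33 ± 0.13 and Nr4a1 at 0.33 ± 0.14 (adjusted p = 0.91 for each). The difference of the cocaine effect between the genotypes was -0.37 ± 0.19 for Nr4a1 (adjusted p = 1), and no gene was called, with 271 at an unadjusted p under 0.05 and no member among them.

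At single time points no member passed the test of cocaine against saline in WT, where 0.00683% of all tests did, nor in iMSN-D2RKO (0.00273%), nor in the difference between the genotypes (0.00273%). At an unadjusted p under 0.05 stood 4 members each at ZT19 and ZT23 in WT (with 718 and 188 genes), 1 each at ZT7 and ZT15 in WT (with 265 and 994 genes) and at ZT15 in iMSN-D2RKO (with 218 genes), 3 at ZT19 in iMSN-D2RKO (with 2340 genes) and 0 in the difference.

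The smallest adjusted p of a member was 0.087, for Nr4a1 at ZT19 in WT (1.42 ± 0.30), where Nr4a3 differed by 1.23 ± 0.41 and Egr2 by 1.05 ± 0.46. At ZT19 in iMSN-D2RKO Egr4 differed by 1.54 ± 0.46, Egr2 by 1.49 ± 0.46 and Nr4a1 by 1.12 ± 0.30 (adjusted p = 0.304 for each), and for these genes every cocaine library lay above every saline library, as for 6.16% of all genes. Egr2 for instance measured 12.4, 14.2 and 9.09 FPKM after cocaine and 5.06, 2.14 and 3.87 after saline. No sample was taken between ZT3 and ZT7, the hours in which early-response genes are known to peak after an injection.

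**Figure D2:**
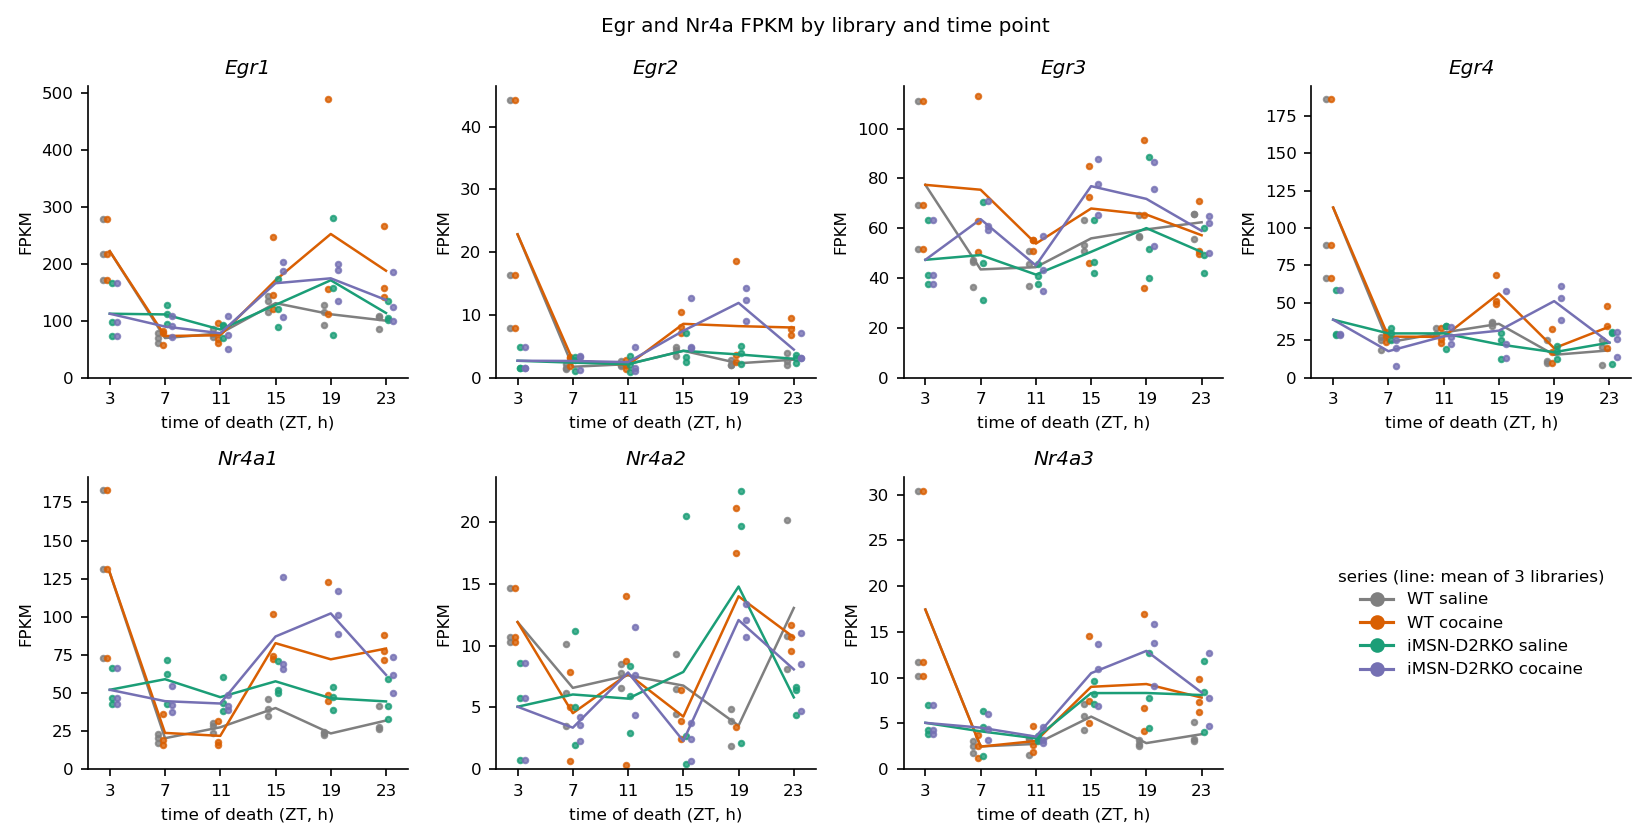
Each panel plots the FPKM of 1 gene on a linear axis from 0 against the time of death in ZT hours, with a point per library and a line through the mean of 3 libraries, for WT saline, WT cocaine, iMSN-D2RKO saline and iMSN-D2RKO cocaine. Both series of a genotype start from the same 3 ZT3 libraries, and in the dark hours the cocaine means of Nr4a1 run from 71.9 to 82.5 FPKM in WT, above those of WT saline at 23.4 to 40.1.

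Between the dark (ZT15, ZT19, ZT23) and the light (ZT7, ZT11), Egr1, Egr2, Nr4a1 and Nr4a3 were called higher in the dark in WT cocaine libraries, and fewer members in the other series. In WT cocaine libraries Nr4a1 measured 16.0 to 36.0 FPKM (median 18.3) in 6 light libraries and 44.6 to 123 (median 73.9) in 9 dark libraries, without overlap. Egr1 measured 58.0 to 95.4 FPKM (median 73.3) in the light and 111 to 491 (median 156) in the dark, also without overlap. Egr2 (1.33 to 3.27 against 2.46 to 18.6 FPKM) and Nr4a3 (1.18 to 4.67 against 4.19 to 17.0) overlapped by their outermost libraries.

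By limma 4 of 7 members were called higher in the dark after cocaine in WT: Nr4a1 by 1.74 ± 0.20 (adjusted p = 1.59e-07), Egr2 by 1.33 ± 0.30 (adjusted p = 0.00866), Nr4a3 by 1.32 ± 0.26 (adjusted p = 0.00519) and Egr1 by 1.31 ± 0.24 (adjusted p = 0.00255). In this series 4.1% of genes were called higher in the dark, and 2 of 7 members, Egr1 and Nr4a1, were free of overlap, as were 0.178% of genes. All 4 calls held with each of 15 libraries left out in turn. In WT 3 saline and 3 cocaine libraries were among those set apart, all from ZT19 or ZT23, and without them the 4 genes were still called, with Nr4a1 at 1.57 and Egr1 at 0.93. Egr4 (0.21 ± 0.29), Nr4a2 (0.80 ± 0.48) and Egr3 (-0.02 ± 0.19) were not called.

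In WT saline no member was called, where 0.0137% of genes were higher in the dark, and Egr1 and Egr3 were the 2 members with an unadjusted p under 0.05, among 2887 genes. Egr1 was free of overlap, as were 0.389% of genes, with 61.1 to 85.1 FPKM in the light and 86.3 to 143 in the dark (0.62 ± 0.24, limma, adjusted p = 0.195). In iMSN-D2RKO saline 1 member was called, Nr4a3, which measured 1.47 to 6.35 FPKM (median 3.51) in the light and 4.06 to 12.7 (median 8.17) in the dark. It differed by 0.97 ± 0.26 (adjusted p = 0.0309), where 5.85% of genes were higher, and the call was lost in 8 of 15 fits that left out a library (adjusted p of 0.00662 to 0.106) and without the set-apart libraries (0.65). The difference between the series in dark against light was not tested.

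In iMSN-D2RKO cocaine 3 of 7 members were called higher in the dark, against 0.164% of genes. Egr2 measured 1.04 to 4.86 FPKM in the light and 3.14 to 14.2 in the dark (1.28 ± 0.30, limma, adjusted p = 0.0442), Nr4a3 2.84 to 6.06 and 4.66 to 15.9 (1.16 ± 0.26, adjusted p = 0.036), and Nr4a1 37.4 to 54.5 and 50.0 to 126 (0.87 ± 0.20, adjusted p = 0.0336). For all 3 genes the ranges overlapped. In fits that left out each of 15 libraries in turn, Egr2 was lost in 9 (adjusted p of 0.0415 to 0.252), Nr4a3 in 11 (0.0198 to 0.185) and Nr4a1 in 11 (0.0263 to 0.143).

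An F test of any difference among ZT7 to ZT23 called the same 4 members in WT cocaine, Egr1, Egr2, Nr4a1 and Nr4a3, but in this series 29.1% of all genes were called. It called none in WT saline (0.369% of genes), in iMSN-D2RKO saline (0.526%) or in iMSN-D2RKO cocaine (0.15%), where 2, 1 and 6 members had an unadjusted p under 0.05, among 2740, 3978 and 1239 genes. Of the WT cocaine means, the highest of Nr4a1 was at ZT15 (82.5 ± 16.6 FPKM, SD, n = 3) and the lowest at ZT11 (21.8 ± 8.71), and that of Egr1 was at ZT19 (253 ± 208), where 1 of 3 libraries measured 491 FPKM.

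Rhythm over the day was tested with a rewritten version of JTK_CYCLE, a two-sided rank test against cosine curves with an exact null and Bonferroni correction over curves, for periods of 20 and 24 h over the 18 libraries of a series. At a corrected p under 0.01, it called 1 of 7 members in WT saline, Egr3 at 24 h (corrected exact p = 0.00507), where 9.81% of genes were called. The means of Egr3 there ran from 43.5 ± 6.10 FPKM at ZT7 to 62.3 ± 5.87 at ZT23, with 77.3 ± 30.2 at ZT3 (SD, n = 3), and it was no longer called when the replicates left out by Dixon's test were kept, nor with plain cosine reference curves (corrected exact p = 0.0154), an alternative chosen after seeing the data. No member was called in WT cocaine (7.61% of genes) or in iMSN-D2RKO saline (2.58%), where 2 members and 1 member had a corrected p under 0.05. In iMSN-D2RKO cocaine Nr4a1 (corrected exact p = 0.00371, 20 h) and Nr4a3 (corrected exact p = 0.00533, 24 h) were called, against 1.1% of genes, with means of Nr4a1 from 43.0 ± 5.08 FPKM at ZT11 to 102 ± 14.2 at ZT19. Both series of a genotype share their ZT3 libraries, and whether a rhythm differed between series was not tested.

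**Figure D3:**
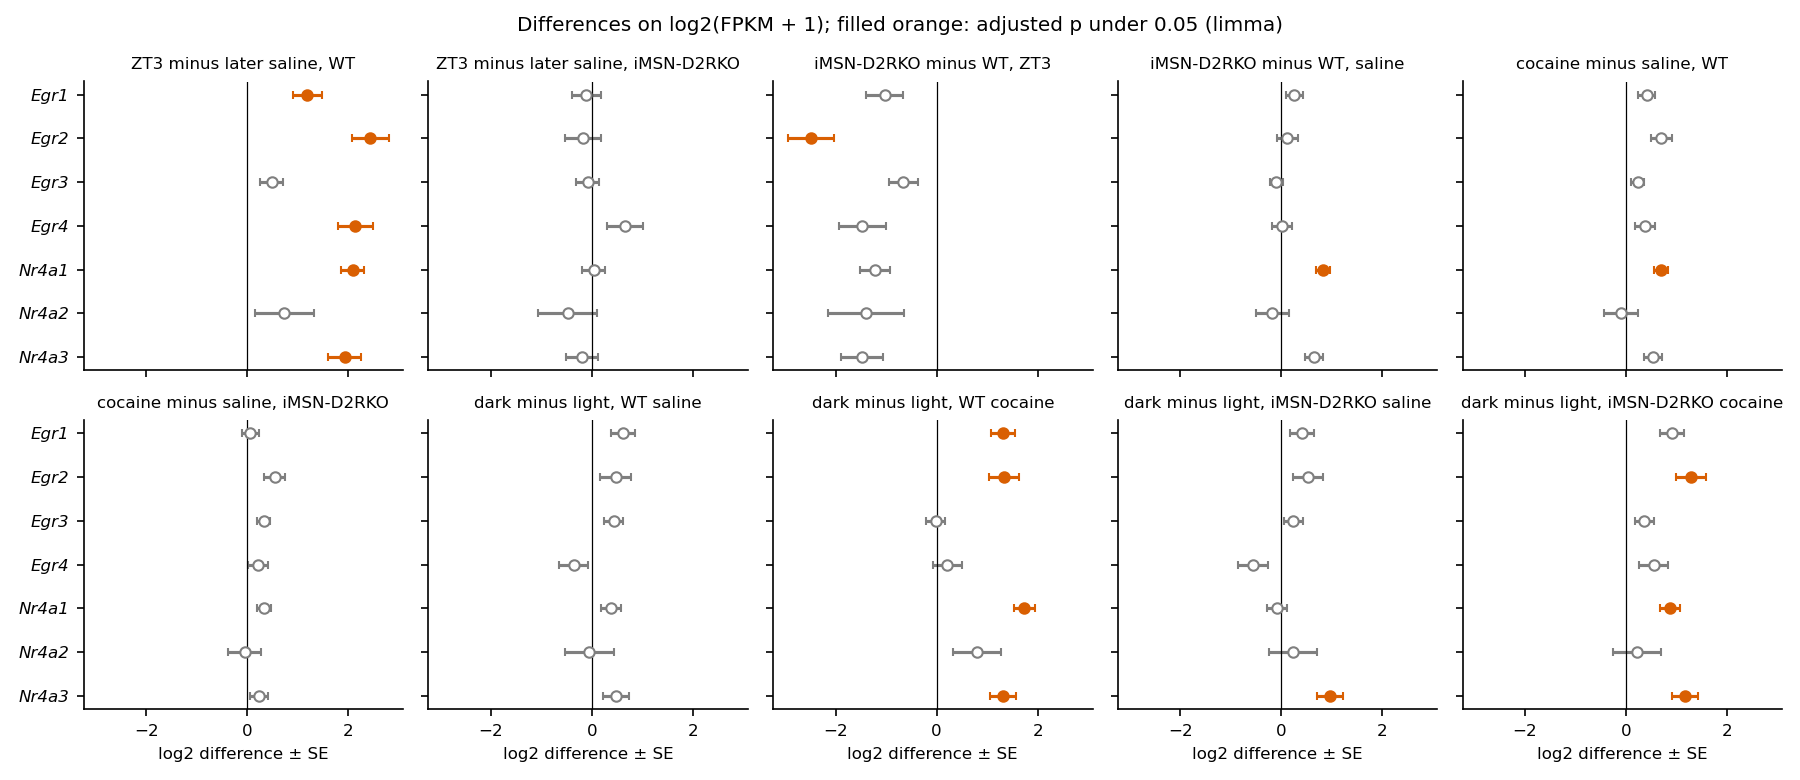
Each panel plots the difference of each member on log2(FPKM + 1) with its SE in 1 comparison, and filled orange points have an adjusted p under 0.05 by limma. Points right of 0 are higher in the group named before the word minus: 5 are filled for ZT3 in WT and none for ZT3 in iMSN-D2RKO.

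Nr4a2 stood apart from the other members. Across the 66 libraries its FPKM had a Spearman's rho of 0.79 with the summed level of the cortical and claustral markers, while rho of the other members with that sum ran from -0.022 for Egr3 to 0.22 for Egr4. Among single markers, Tbr1, a transcription factor of cortical projection neurons, had a rho of 0.88 and Neurod6 of 0.79, while Slc17a7, the vesicular glutamate transporter of cortical neurons, ran from 1.78 to 233 FPKM and had a rho of 0.68. These values share the library and the punch, and are a description of it.

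Within a group Nr4a2 could range as widely as between groups. At iMSN-D2RKO saline ZT15 it measured 2.67, 20.5 and 0.424 FPKM, at WT cocaine ZT11 0.356, 14.0 and 8.74, and at iMSN-D2RKO saline ZT19 22.5, 2.14 and 19.7. Among the ZT3 libraries of iMSN-D2RKO the lowest Nr4a2, 0.754 FPKM, was in replicate 3, which also had the lowest Tbr1 of the 6 ZT3 libraries (1.63 FPKM against 10.1 to 18.5). No comparison of Nr4a2 between treatments, genotypes or hours passed the test. The markers of midbrain dopamine neurons, of which Nr4a2 is a lineage gene, summed to 6.98 to 17.3 FPKM, with a rho of -0.43.

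**Figure D4:**
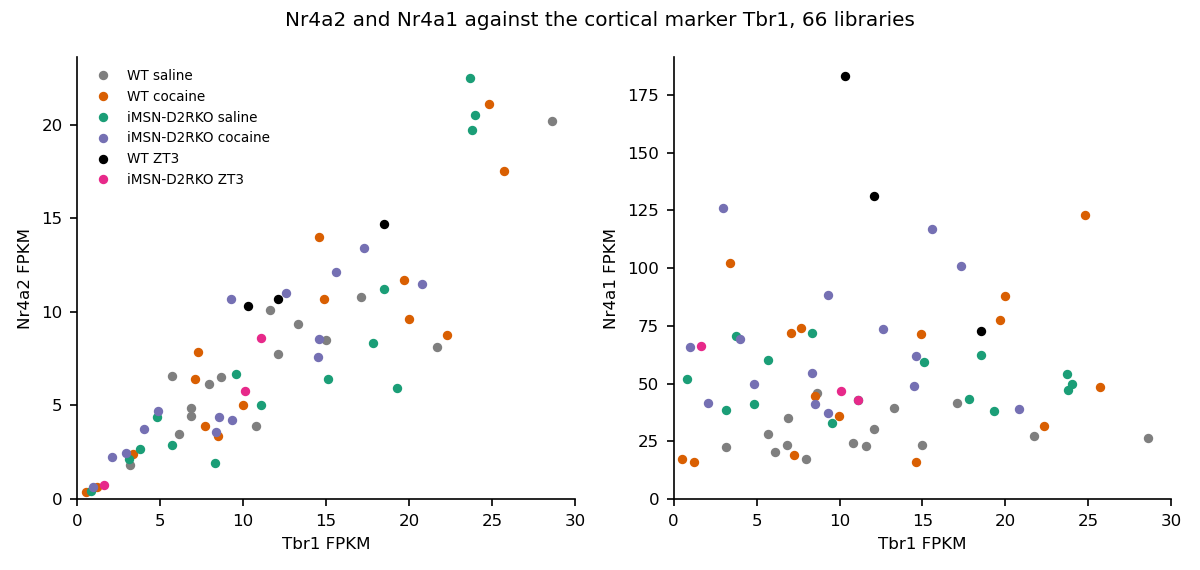
Each point is 1 of 66 libraries, with the FPKM of the cortical marker Tbr1 on the horizontal axis and that of Nr4a2 (left) or Nr4a1 (right) on the vertical axis, coloured by genotype and treatment. Nr4a2 follows Tbr1 (Spearman's rho 0.88) and Nr4a1 does not (0.11).

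Egr1 and Egr4 moved apart along the axis on which 13 libraries stood off. Taken as deviations from their group means, Egr4 had a rho of -0.67 with the library score and Egr1 of 0.51, and that of Nr4a3 was 0.47, of Egr3 0.43, of Nr4a2 0.37, of Nr4a1 -0.14 and of Egr2 -0.03 (66 libraries). In 10 groups that held both kinds of library, Egr4 was lower in the set-apart libraries in 9, by a median of -1.15 on the log2 scale, and Egr1 was higher in 10, by 0.62. The axis was itself computed from such deviations of 9584 genes with a mean FPKM over 5, the members among them. How many of all genes follow it as closely was not counted, so these values describe the libraries and are not particular to the members. At WT saline ZT19, for instance, where replicates 1 and 2 stood apart, Egr4 measured 11.2, 9.54 and 24.9 FPKM and Egr1 127, 115 and 92.2. With the score as a covariate, 39 of the 40 calls of a member over all comparisons held, and without the 13 libraries 33 did.

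**Figure D5:**
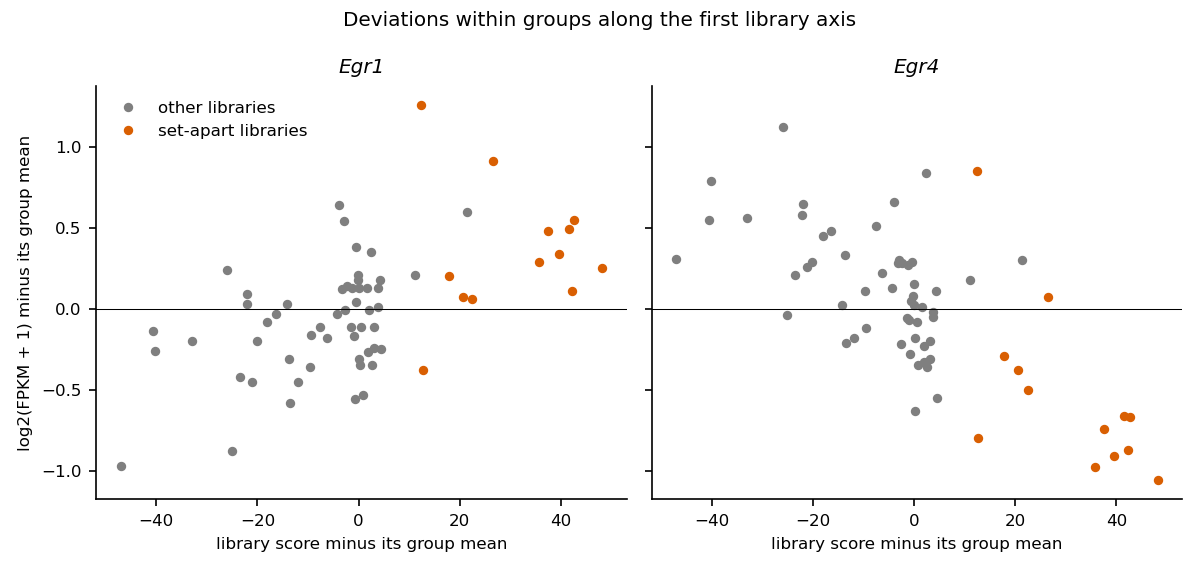
Each point is a library, with its score on the first axis minus its group mean (no unit) across and the log2(FPKM + 1) of Egr1 (left) or Egr4 (right) minus its group mean upward, and the 13 set-apart libraries in orange. Egr4 falls along the axis (Spearman's rho -0.67) and Egr1 rises (0.51).

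Among themselves, Egr1, Egr2, Nr4a1 and Nr4a3 had the most similar levels across the 66 libraries, with rho from 0.74 to 0.82 for their pairs and from 0.71 to 0.80 without the 6 ZT3 libraries. Egr3 had its highest rho with Egr1 and Egr2 (0.60 each) and its lowest with Egr4 (0.08). Nr4a2 had rho of 0.10 to 0.36 with the rest. The 3 genes most like each member by rho, of 12945 with a mean FPKM of at least 1, were other early-response genes for some: Fosl2 (0.80), Midn (0.79) and Arc (0.79) for Nr4a1, Fosl2 (0.83), Egr1 (0.82) and Egr2 (0.78) for Nr4a3, and Egr1 (0.81), Midn (0.78) and Nr4a3 (0.78) for Egr2.

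For Egr1 the nearest genes were Nr4a3 (0.82), P4ha1, a subunit of collagen prolyl hydroxylase (0.82), and Egr2 (0.81), for Egr4 Junb (0.85), Irf2bpl (0.82) and Sbk1 (0.82), and for Egr3 Homer1, whose short form is an early-response product (0.84), Cobl (0.84) and Arhgap19 (0.78). For Nr4a2 they included Rtn4rl2 and Tbr1 (0.88 each). Over deviations from group means, which leave out differences between conditions, the 3 nearest genes shared 0 with those over FPKM for Egr1, Egr3, Nr4a1 and Nr4a3, 1 for Egr2, 2 for Egr4 and 3 for Nr4a2.

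Of the genes that act with or upstream of the members, few were called. The corepressors Nab1 and Nab2 were called in none of the comparisons described here, with mean FPKM of 26.2 for Nab2 in WT ZT3 and 19.9 in later WT saline libraries. Of 6 genes of serum response factor and its partners, Elk3 was called, higher in the dark in WT cocaine by 0.33, as were 4.1% of all genes. Of 8 genes of CREB, its relatives and coactivators, Atf1 was called, higher in the dark in iMSN-D2RKO saline, and of the 3 RXR genes Rxrg, lower there by -0.64. In that comparison 5.85% of all genes were called higher and 1374 genes in either direction, and without the set-apart libraries 31 genes were called.

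Other early-response genes, a list of 22 with Fos, Jun, Arc and Dusp genes among them, were also higher at ZT3 in WT. Of these 22, 13 were called higher than in later saline, none lower, with a median of 0.84 on the log2 scale against -0.05 over all genes. Of all genes 0.273% were called higher. The list was chosen with earlier results of these data known, so its count is not independent support. Fosl2 and Fosb, subunits of AP-1, differed by 2.14 and 1.64, and Sik1, a salt-inducible kinase, by 1.0. Without WT ZT3 replicate 1, 15 of all genes were called in this comparison instead of 51, and the 22 were not recounted. In iMSN-D2RKO 0 of 22 were called, with a median of -0.05. The difference between the genotypes was called lower for Fosl2 (-1.91) and Tiparp (-1.29), as for 0.0546% of all genes. At ZT3 alone Tiparp (-1.35) and Cyr61 (-0.98) were lower in iMSN-D2RKO, as were 0.041% of all genes.

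For cocaine against saline none of the 22 was called in WT (median 0.18, 22 of 22 above 0) or in iMSN-D2RKO (median 0.21, 20 of 22 above 0). In the dark against the light 8 of 22 were called higher in WT cocaine (4.1% of all genes), among them Arc by 1.61, Tiparp by 0.80 and Dusp6 by 0.77, and 1 of 22 each in iMSN-D2RKO saline (Tiparp, with 5.85% of all genes) and cocaine (Fosl2, by 1.10, with 0.164% of all genes). In saline Jun was the 1 gene of the list called between the genotypes, higher in iMSN-D2RKO by 0.38, where 0.164% of all genes were called higher.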

How the data were processed

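RNA-seq of ventral striatum punches was processed by the authors, who built stranded poly(A) libraries, sequenced single-end reads, aligned them to mm10 with TopHat and Bowtie2 and summarised genes with Cufflinks, Cuffmerge, Cuffquant and Cuffnorm; the submitters' notes name CASAVA 1.8.2, Bowtie and Cuffnorm. The deposited values are FPKM per gene. The Cuffnorm option and annotation release are not given in the sources used here. The 72 columns hold 66 distinct libraries, the 6 ZT3 libraries being listed with identical values in both series. No column was left unmapped.

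Groups came from the labels. limma 3.58.1 (R 4.3.3, trend, empirical Bayes) was fitted to log2(FPKM + 1) of the 14643 genes with at least 1 FPKM in a library. A log2 fold on this scale understates the change of low genes. JTK_CYCLE was rewritten in Python 3.11.15 (numpy 2.4.6, pandas 2.3.3, scipy 1.17.1), leaving out at most 1 replicate per time point by Dixon's test at 95%, which it did for 7 of 168 combinations of member, series and time point. Its reference curves and the critical value of Dixon's test were chosen, among several tried, as those that came closest to p-values the study lists for WT saline genes. Its calls are therefore not independent of the study, and they can differ from those of the original program. Plain cosine curves and Dixon's test at 90% were added as alternatives after seeing the data. Tested on simulated data, limma found 66 of 100 added changes of 1 and 89 of 100 of 2 on the log2 scale for WT cocaine at ZT15. It made 7 false calls among the unchanged of 14643 genes. The simulated noise was independent between genes, without the axis shared by the real libraries, so false calls in the data can differ. JTK_CYCLE called 200 of 200 rhythmic and 12 of 2000 flat series of invented values in the layout of WT saline. Their noise was small against the rhythm, and Dixon's test was not applied to them. Figures used matplotlib 3.10.9. Exons that bound printed promoters were those of GENCODE M21.

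The genes named were the 7 members, Drd2, the 3 genes most like each member by Spearman's rho, of each list at most 3 with the smallest p, and marker genes of the cell type and tissue lists. A gene that this rule selects for Nr4a2 is not reported here. The members, gene lists and markers were chosen with earlier results of these data known.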

Additional observations from a re-analysis of the deposited data

Results flagged for a closer look

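For 3 members the same comparison gave different results in the genotypes, and the difference itself passed the test. ZT3 against later saline was higher in WT and not in iMSN-D2RKO, and the difference, iMSN-D2RKO minus WT, was -2.62 for Egr2, -2.04 for Nr4a1 and -2.12 for Nr4a3 on the log2 scale (limma, adjusted p = 0.0147, 0.00111 and 0.0375). Without WT ZT3 replicate 1 these were -1.99, -1.75 and -1.66, and Nr4a1 alone remained called. The difference takes in the later saline level as well as ZT3. At ZT3 alone, iMSN-D2RKO minus WT was -2.49 for Egr2 (called), -1.22 for Nr4a1 and -1.48 for Nr4a3 (neither called). In later saline it was 0.12 for Egr2, 0.82 for Nr4a1 and 0.64 for Nr4a3, with Nr4a1 alone called. No group holds the 4 libraries that the test for a library far from the rest of its group needs, so it was not run.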

How the results depend on the processing

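Over 26 counts of members called, 247 of 304 alternatives gave a count within 1.5 times of that reported. No single member that was called changed direction in any of 1026 alternatives, and 237 of them took it over the threshold. Of the 40 such calls, 39 held at a pseudocount of 0.1, 36 with no filter, 40 with a mean FPKM of at least 1, 37 with every library scaled to the same total, 40 after quantile normalization, and 14 in fits of only the compared groups, which have few degrees of freedom.

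Without a filter, cocaine in WT (mean of ZT7 to ZT23) had 0 members, and so it had without the set-apart libraries and with only the compared groups. With only the compared groups there were 0 members for iMSN-D2RKO against WT at ZT3, 0 of 35 tests for ZT3 against each later saline time point in WT, 1 for dark against light in WT saline, 0 in iMSN-D2RKO saline and 0 in iMSN-D2RKO cocaine, and 1 each for the F test in WT saline and WT cocaine. Without the set-apart libraries there were 2 members for iMSN-D2RKO against WT at ZT3, 0 for dark against light in iMSN-D2RKO saline, 1 for the F test in iMSN-D2RKO cocaine, and by JTK_CYCLE 0 in WT saline and 1 in iMSN-D2RKO cocaine. With the library score as covariate there were 1 for cocaine at single time points in WT, 2 for iMSN-D2RKO against WT at ZT3 and 2 in saline, 0 for dark against light in iMSN-D2RKO saline and 3 for the F test in iMSN-D2RKO cocaine. Scaled to the same total, dark against light in iMSN-D2RKO cocaine had 1. JTK_CYCLE called 0 members in WT saline with no replicate left out and 0 with plain cosine reference curves, an alternative chosen after seeing the data, and at a corrected p under 0.05 it called 2 in WT saline, 2 in WT cocaine and 1 in iMSN-D2RKO saline. Apart from the settings whose construction shows it, such as fewer libraries, the cause was not tested.

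Without replicate 1, 2 or 3 of every group, members called ranged from 1 to 4 for ZT3 in WT, 0 to 1 for the difference between genotypes, 1 to 11 tests against single time points in WT and 0 to 1 in iMSN-D2RKO, 0 to 0 for iMSN-D2RKO against WT at ZT3 and 0 to 1 in saline, 0 to 0 for cocaine in WT, 1 to 5 for dark against light in WT cocaine, 0 to 1 in iMSN-D2RKO saline and 0 to 0 in iMSN-D2RKO cocaine, 1 to 4 for the F test in WT cocaine, and for JTK_CYCLE 0 to 0 in WT saline and 0 to 1 in each iMSN-D2RKO series.

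The replicate number does not pair the libraries: same-numbered cocaine and saline libraries had r over 0.1 in 6 of 30 pairs, and in 0 of 10 sets for all 3. With the replicate block 5 members were called at ZT3 in WT, 2 instead of 3 for dark against light in iMSN-D2RKO cocaine, and 39 of 40 calls held.

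Counts over all genes moved more. With the score as covariate 151 genes instead of 51 were called at ZT3 in WT, 176 instead of 3 in iMSN-D2RKO, 27 instead of 8 for their difference, 468 instead of 31 between genotypes in saline and 104 instead of 16 after cocaine. The calls at ZT3 between the genotypes ran from 0 to 18 genes (6 as reported), for cocaine in WT from 0 to 5 (2), for dark against light in WT saline from 0 to 33 (9) and in iMSN-D2RKO cocaine from 0 to 207 (35), and for the F test from 1 to 130 (54), 206 to 4472 (4264), 0 to 1938 (77) and 0 to 234 (22) in WT saline, WT cocaine, iMSN-D2RKO saline and iMSN-D2RKO cocaine. Dark against light in WT cocaine called 837 genes, from 3 without replicate 3 to 2259 without the set-apart libraries, and 1374 in iMSN-D2RKO saline, but 0 without replicate 1 and 31 without the set-apart libraries. Scaling to the same total moved the median of all genes by less than 0.1 and the share of higher calls from 71.7% to 55.9% (59.9% after quantile normalization) for dark against light in WT cocaine, from 62.3% to 83.2% in iMSN-D2RKO saline, from 68.6% to 54.1% in iMSN-D2RKO cocaine, and from 77.4% to 61.8% between genotypes in saline. Quantile normalization gave 88.7% instead of 78.4% at ZT3 in WT.

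With 3 libraries a group, 1 library can make or end a call, and unknown read numbers leave the error of low values such as those of Egr2 and Nr4a2 to the replicates. No hour between ZT3 and ZT7 was sampled.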
